A study of Mus musculus with 6 samples.

Results

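A set of 9 genes that mark oligodendrocyte precursor cells (OPCs) was followed across genotypes: Cspg4, Lhfpl3, Neu4, Gpr17, Cacng4, Matn4, C1ql1, Susd5 and Rlbp1. They were chosen by name as markers that place OPCs and their committed successors among neural cells, mostly through surface or secreted proteins, and they are 9 of the 31266 genes with a value. The libraries came from OPCs of C57BL/6 mice at postnatal day 0.5. Spinal cord cells were selected with magnetic beads for A2B5, a ganglioside epitope of glial precursors, and kept for 16 h in a medium that promotes division, which held forskolin at 5 µM together with PDGF and CNTF at 10 ng/mL each. The labels set 3 knockout (KO) libraries of Gde3, the gene with the symbol Gdpd2, against 3 wild-type (WT) libraries. They do not say whether the knockout was made in every cell or which exons it removed. They also do not tie replicates to separate animals, litters or cultures, so a p-value here reflects only how far these 6 libraries scatter, and some of that scatter may be technical.

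OPCs are dividing glia from which the myelin-forming oligodendrocytes arise, and they are recognised by a characteristic set of proteins on and around the cell. Cspg4 encodes NG2, the transmembrane chondroitin sulfate proteoglycan by which OPCs are most often stained. Gpr17 encodes an orphan receptor related to the nucleotide and cysteinyl leukotriene receptors, and it appears as precursors leave the cycle and commit to differentiation. Cacng4 encodes a transmembrane AMPA receptor regulatory protein, Lhfpl3 a tetraspan membrane protein, and Susd5 a membrane protein with a sushi domain. C1ql1 encodes a secreted C1q-like ligand of adhesion G protein-coupled receptors, and Matn4 an extracellular matrix protein of the matrilin family. Neu4 encodes a sialidase, an enzyme that removes sialic acid from glycoproteins and glycolipids. Rlbp1 encodes a retinaldehyde-binding protein that is cytosolic, so it is a marker of these cells without being a surface or secreted protein.

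Sequences around the starts of 4 of these genes are shown because spliced transcripts that cover their first exon were assembled there. RefSeq promoter windows on GRCm38.p6 were at hand for 6 of the 9 genes. Each sequence is written 5′ to 3′ on the strand of the gene. Capitals span those assembled 5′ ends of such transcripts that lie within the printed stretch, which ends at most 30 bases past the annotated start (for Neu4 the capitals run on to the end of the stretch). The Cspg4 stretch is chr9:56864854-56865040, plus strand. The Lhfpl3 stretch is chr5:22745804-22746066, plus strand. The Neu4 stretch is chr1:94020243-94020480, plus strand. The Rlbp1 stretch is chr7:79387049-79387277, minus strand.
Cspg4: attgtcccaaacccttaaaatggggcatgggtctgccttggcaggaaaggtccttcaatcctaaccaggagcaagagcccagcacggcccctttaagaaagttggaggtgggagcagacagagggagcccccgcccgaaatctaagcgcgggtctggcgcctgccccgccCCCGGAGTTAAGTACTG
Lhfpl3: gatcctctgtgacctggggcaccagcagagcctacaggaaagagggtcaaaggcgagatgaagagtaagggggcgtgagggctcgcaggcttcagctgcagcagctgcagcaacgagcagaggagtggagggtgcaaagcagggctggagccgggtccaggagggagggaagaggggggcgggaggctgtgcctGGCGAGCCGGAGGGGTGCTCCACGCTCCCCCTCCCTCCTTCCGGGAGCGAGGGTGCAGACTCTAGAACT
Neu4: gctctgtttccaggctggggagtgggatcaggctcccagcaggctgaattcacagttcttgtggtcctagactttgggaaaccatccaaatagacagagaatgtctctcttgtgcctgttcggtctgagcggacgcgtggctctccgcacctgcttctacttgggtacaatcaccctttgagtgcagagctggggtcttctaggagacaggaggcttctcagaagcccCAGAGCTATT
Rlbp1: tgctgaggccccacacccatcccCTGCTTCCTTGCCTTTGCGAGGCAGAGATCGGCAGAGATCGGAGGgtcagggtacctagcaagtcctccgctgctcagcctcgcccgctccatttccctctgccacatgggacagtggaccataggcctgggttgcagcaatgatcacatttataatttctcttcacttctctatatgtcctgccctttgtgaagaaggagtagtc
Cspg4 transcripts began between bases 56865024 and 56865040 in 5 libraries, within 9 bases of the annotated start, and at 56864814, upstream of the stretch shown, in WT replicate 2. Neu4 transcripts over the first exon began 20 to 41 bases inside the annotated start in all 6 libraries. Those of KO replicate 2 and WT replicate 1, at 94020492, lie past the stretch shown. At Lhfpl3, 2-exon transcripts over the first exon, not joined to the later annotated exons, began within 7 bases of the annotated start in 4 libraries. That exon lies over A930003O13Rik on the opposite strand. WT replicate 2 had a 4-exon transcript that began 61 bases upstream and ran to the last exon, and KO replicate 2 had no spliced transcript over the first exon. The transcripts that gave Lhfpl3 its value in the other 5 libraries began far inside the gene, at or after base 23004740. Rlbp1 transcripts over the first exon began 162 to 261 bases upstream of the annotated start in 5 libraries. Of these, KO replicate 1, at 79387309, lies outside the stretch shown. In WT replicate 1 they began 80 bases inside the annotated start. Some libraries also held Neu4 and Rlbp1 forms that began past the first exon. Examples are 1867 bases inside for Neu4 in KO replicate 1 and 2269 bases inside for Rlbp1 in KO replicate 2. An assembled end is where read coverage began, not a mapped cap site. Short motifs were looked for on both strands in the 250 bases before each RefSeq start: CAGCTG, an E-box, and ACAAAG and ACAATG, both of the SOX type. CAGCTG was in the Lhfpl3 window, first at base 93 of that window, and in 13.001% of 32851 windows. ACAAAG was in the Rlbp1 window and in 16.5% of windows. ACAATG was in none of the 7 windows of these genes and in 10.7% of windows.

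Levels are given in FPKM, a read density per unit of transcript length and of sequencing depth, averaged over the exonic bases of a gene that no other annotated gene shares. This scale is per length, so genes can be set side by side. A base that was not assembled counts as 0, so a value mixes level with assembled extent. Averaged over all 6 libraries, the order was Lhfpl3 (99.7 FPKM), Gpr17 (94.9), Cacng4 (84.0), Cspg4 (44.5), C1ql1 (31.4), Matn4 (10.5), Rlbp1 (8.61), Neu4 (2.05) and Susd5 (0.963). The first 3 were among the highest 5.43% of the 12045 genes tested, those with a mean of at least 1 FPKM, while Neu4 stood near the low end, with 89.6% of tested genes at or above it. The library ranges of neighbours in this order overlapped, except between Cspg4 and C1ql1, between C1ql1 and Matn4, and between Rlbp1 and Neu4. Susd5 lay just below the limit for testing and Neu4 was the lowest of the 9 above it.

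**Figure D1:**
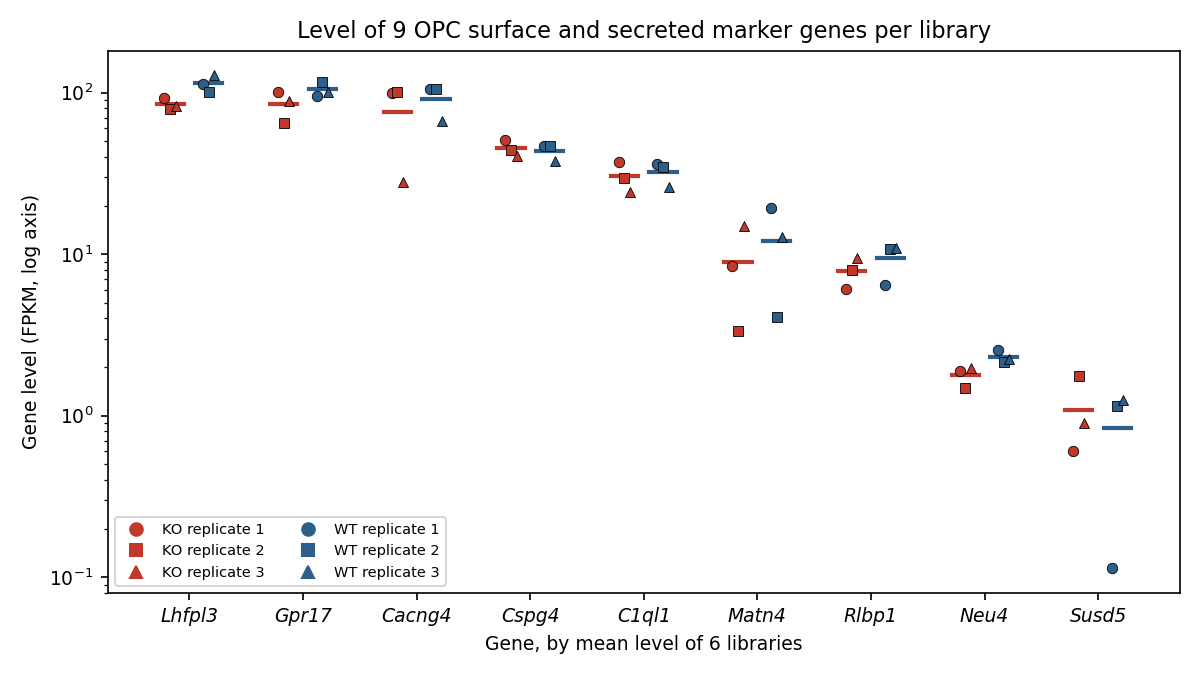
FPKM (log axis) of the 9 marker genes in each library, ordered by mean, with KO in red and WT in blue, marker shapes for replicates 1 to 3 and a bar at each group mean. Lhfpl3 and Neu4 are the genes whose KO libraries all lie below the WT libraries, and KO replicate 3 stands far below the others for Cacng4.

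The labelled cell type was checked on other genes. Transcription factors of the lineage were high in every library, with Olig1 at 356 to 518 FPKM, Olig2 at 83.3 to 279 and Sox10 at 82.3 to 217, and the precursor receptor Pdgfra was at 60.7 to 133 FPKM. RNA of other cells was present too. The astrocyte genes Gfap and Aldoc were at 32.1 to 401 and 38.3 to 90.5 FPKM. The neuronal genes Tubb3 and Stmn2 were at 61.6 to 90.5 and 10.1 to 68.0 FPKM. Stmn2 was at 68.0 FPKM in WT replicate 1 and at no more than 19.7 in any other library. Of 9 tested microglial genes, 9 were higher in KO, with a median log2 difference of 0.83 and a summed level, over the 12 genes listed, of 118 to 213 FPKM in KO and 71.4 to 94.2 in WT. None of the 12 was listed at 0 in all 6 libraries, and the most abundant, Tyrobp, was at 22.5 to 44.1 FPKM. Exons 9 and 10 of Gdpd2 were at 0% assembled in all 3 KO libraries and at 100% in WT replicates 2 and 3, while WT replicate 1 held 1 short fragment. The assembly of WT replicate 1 was fragmented, its median transcript being 438 nt long where the remaining 5 had medians of 1173 to 1830 nt. Identifiers in the labels carry a middle number, 3 in both replicate 1 libraries and 4 in the other 4, whose meaning the labels do not give. Read totals are unknown, and coverage per FPKM gave relative depths of 0.759 to 1.

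The genotype comparison asked whether Gde3 KO cells carried these markers at other levels. None of the 8 genes tested passed a limma adjusted p under 0.05, where 0.0083% of all 12045 genes did (1 gene), and their adjusted p was 0.9999 each. In sign, 7 were lower in KO and 1, Cspg4, was higher, against 51.4% of tested genes lower. The median log2 difference of the 8 was -0.29, against -0.01 for all tested genes. All KO libraries lay below all WT libraries for 2 of the 8, Lhfpl3 and Neu4, against 3.03% of tested genes, and no gene had all KO above all WT (2.03% of tested genes). Unadjusted limma p was under 0.05 for 1 of the 8, against 1.62%. In bulk RNA, fewer cells of a type and less RNA per cell cannot be told apart. The summed microglial genes above and the summed committed precursor genes below did not overlap between genotypes. By gene, all KO libraries lay above all WT libraries for 5 of the 9 tested microglial genes (2.03% of tested genes). All KO lay below all WT for 1 of the 14 committed precursor genes (3.03% of tested genes). The part of either list in the marker differences was not tested.

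**Figure D2:**
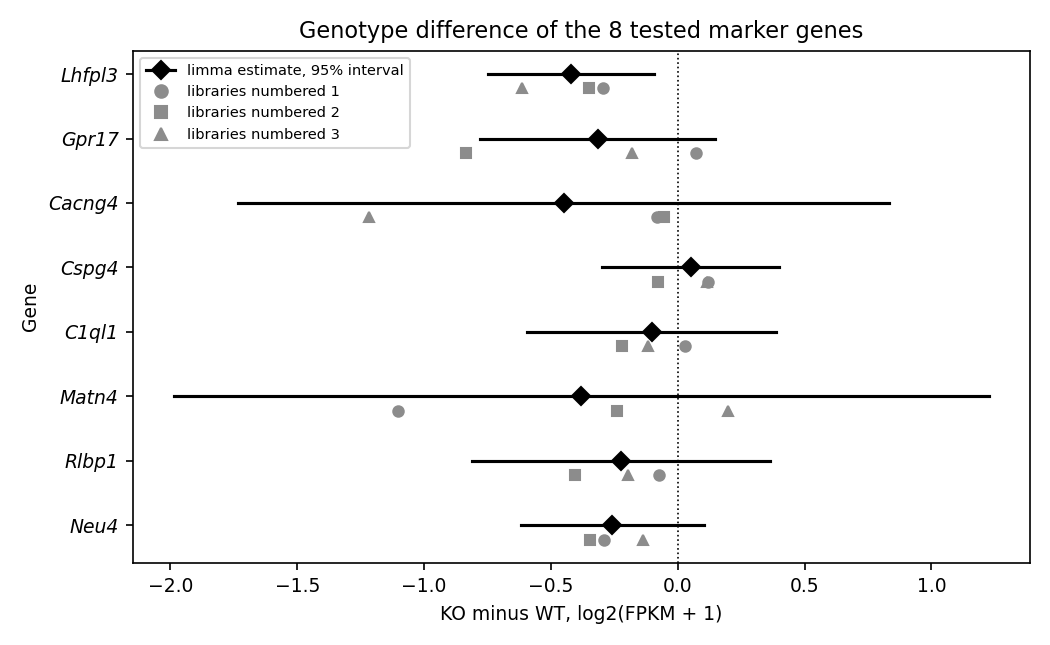
Difference KO minus WT in log2(FPKM + 1) for the 8 tested genes, with diamonds for the limma estimate, lines for its 95% confidence interval, and grey symbols for the difference between KO and WT libraries of the same number. The Lhfpl3 interval ends below 0, at -0.09, and every other interval spans 0, from -1.99 to 1.23 in the widest, Matn4.

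Lhfpl3 (ENSMUSG00000106379.1, chromosome 5, 22746059 to 23275597, plus strand, mm10) had the lowest unadjusted p of the 8. It was at 92.6, 79.2 and 83.2 FPKM in KO replicates 1 to 3 and at 113.9, 101.3 and 127.9 FPKM in WT replicates 1 to 3. The highest KO library lay below the lowest WT library. The KO library was thus necessarily the lower one for each of the 3 numbers, by log2 differences of -0.29, -0.35 and -0.61. The means were 85.0 ± 6.91 and 114 ± 13.3 FPKM (SD, n = 3 each), so KO stood at 74.3% of WT. The log2 difference was -0.42 ± 0.13 (SE, 95% confidence interval -0.75 to -0.09, limma unadjusted p = 0.0201, adjusted p = 0.9999). It was not past the adjusted threshold, and the fit that paired libraries by number gave an adjusted p of 0.809. Without both replicate 1 libraries the difference was -0.48. The difference was negative under all 20 settings tried. With all KO below all WT libraries, left-out libraries, pseudocounts, filters, weights and the block could not turn the sign. Other gene values and scalings could, such as FPKM summed over transcripts (-0.42) and equal library medians (-0.41).

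The structure of Lhfpl3 bears on what its value holds. Its first exon overlaps A930003O13Rik on the opposite strand, so 2646 of its 3213 exonic bases, from the remaining exons, entered the value. Over that first exon the level was 58.0, 116.8 and 123.9 FPKM in KO and 144.4, 77.7 and 147.9 in WT. The genotypes overlapped there. Over exon 3 the level was 100.7, 93.3 and 95.2 FPKM in KO and 130.2, 115.5 and 144.5 in WT. Over exon 5, which holds most of the length, it was 97.7, 82.4 and 86.8 FPKM in KO and 119, 106.3 and 134.2 in WT. KO libraries were all below WT libraries in both exons. Each assembled transcript carries a single FPKM over all its exons, so these exons are not separate measurements of the difference. The 48-nt exon 4 (23221865 to 23221912) was at 0% assembled in all 6 libraries. WT replicate 2 alone had a transcript that ran from the first exon to the last, at 77.7 FPKM.

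Neu4 (ENSMUSG00000034000.15, chromosome 1, 94020451 to 94028334, plus strand) was the other gene without overlap, at a far lower level. KO libraries had 1.90, 1.49 and 1.96 FPKM, and WT libraries 2.55, 2.16 and 2.25 FPKM. KO replicate 3 was the highest KO library and WT replicate 2 the lowest WT library, so the gap between the genotypes was narrow. The means were 1.78 ± 0.258 and 2.32 ± 0.1997 FPKM (SD, n = 3 each), with a log2 difference of -0.26 ± 0.15 (SE, limma unadjusted p = 0.131, adjusted p = 0.9999). Assembled extent was uneven, at 94.3%, 87.1% and 93.2% of the bases in KO and 63.5%, 95.3% and 96.5% in WT. Over coding bases alone the values were 1.98, 2.15 and 3.13 FPKM in KO and 4.12, 2.23 and 2.28 in WT, and the genotypes overlapped. Its difference was negative under all 19 settings that tested it, from -0.37 over assembled bases only to -0.05 with FPKM summed over transcripts. Only other gene values and scalings could turn its sign, as all KO lay below all WT on the main value.

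Gpr17 (ENSMUSG00000052229.5, chromosome 18, 31942997 to 31949636, minus strand) marks the committed stage. It was at 100.8, 65.3 and 89.2 FPKM in KO and at 95.8, 117.2 and 101.4 FPKM in WT. KO replicate 2 was the lowest library and WT replicate 2 the highest, and KO replicate 1 lay above WT replicate 1, so the groups overlapped. The means were 85.1 ± 18.1 and 104.8 ± 11.1 FPKM (SD, n = 3 each), with a log2 difference of -0.31 ± 0.19 (SE, limma unadjusted p = 0.148, adjusted p = 0.9999). By number the differences were 0.07, -0.83 and -0.18. Without KO replicate 2 the difference was -0.14, and without both replicate 1 libraries it was -0.51. Gpr17 shares exonic bases with Lims2 on the opposite strand, and these were left out of its value.

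Every library gave Gpr17 a second assembled transcript beside the annotated one. It lacked a 285-nt piece (31943803 to 31944087) downstream of the coding sequence, in the 3′ untranslated part of the last exon, that the annotation does not list as an intron. The same ends were assembled in all 6 libraries. This form was at 11.5, 14.1 and 10.9 FPKM in KO and at 14.9, 18.7 and 11.99 FPKM in WT. It made up 11.1%, 20.8% and 11.9% of the summed Gpr17 FPKM in KO and 15.1%, 15.4% and 11.5% in WT. The shares overlapped between genotypes, with KO replicate 2 the highest.

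Cacng4 (ENSMUSG00000020723.3, chromosome 11, 107732357 to 107794557, minus strand) had the largest negative difference of the 8, and its low libraries were low over the last exon alone. Its gene values were 99.3, 100.8 and 28.0 FPKM in KO and 105.1, 104.6 and 66.3 FPKM in WT. Both replicate 3 libraries were low, and the other 4 lay within 99.3 to 105.1 FPKM. The means were 76.0 ± 41.6 and 92.0 ± 22.3 FPKM (SD, n = 3 each), with a log2 difference of -0.45 ± 0.53 (SE, limma unadjusted p = 0.425, adjusted p = 0.9999). Over exons 1 to 3 alone the values were 101.3, 102.8 and 102.7 FPKM in KO and 105.1, 107.0 and 99.6 in WT, 102.3 ± 0.828 against 103.9 ± 3.82. The libraries were alike over these exons, and the replicate 3 libraries departed in the last exon. It is 2962 nt long, of which the first 536 nt are coding. KO replicate 3 was assembled over its first 415 nt only, while WT replicate 3 was at 99.6 FPKM over 1483 nt, then at 28.4 FPKM to 2203 nt, at 0 to 2602 nt and at 28.4 FPKM to the end. Averaged over assembled bases only, the sign turned, with a log2 difference of 0.11. Over coding bases it was -0.08. Each assembled transcript carries a single FPKM over all its bases, so levels along this gene follow the assembly and are not read coverage.

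**Figure D3:**
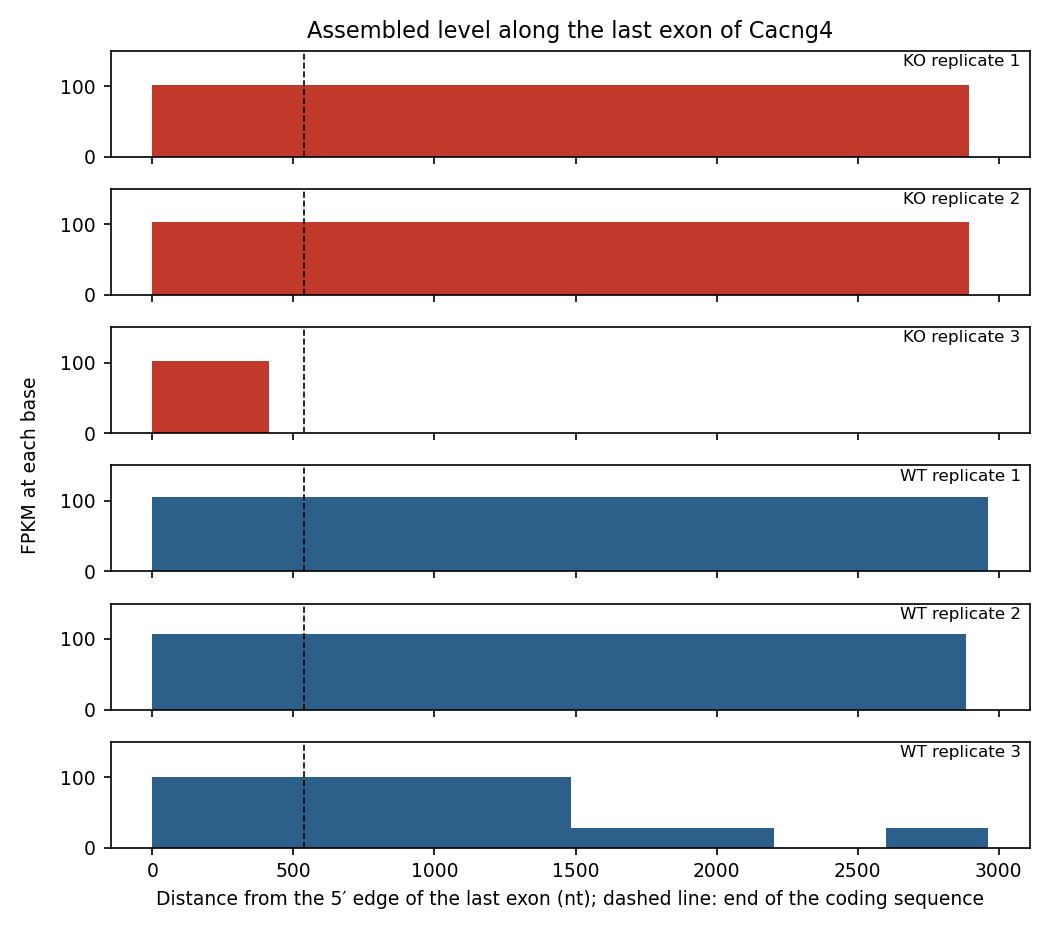
FPKM at each base of the last Cacng4 exon by distance from its 5′ edge in nt, 1 panel per library, with a dashed line at the end of the coding sequence at 536 nt. KO replicate 3 stops at 415 nt and WT replicate 3 falls to 28.4 FPKM after 1483 nt. The other 4 libraries are assembled to at least 2884 nt. Each assembled transcript carries a single FPKM, so the level is flat within it by construction and is not read coverage.

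Cspg4 (ENSMUSG00000032911.6, chromosome 9, 56865033 to 56899870, plus strand) was the one tested gene with a higher mean in KO. KO libraries had 51.1, 44.1 and 40.7 FPKM and WT libraries 47.0, 46.5 and 37.5 FPKM. KO replicate 1 was the highest and WT replicate 3 the lowest, and the groups overlapped. The means were 45.3 ± 5.29 and 43.7 ± 5.33 FPKM (SD, n = 3 each), with a log2 difference of 0.05 ± 0.14 (SE, 95% confidence interval -0.30 to 0.40, limma unadjusted p = 0.730, adjusted p = 0.9999). All 9 annotated introns were assembled in all 6 libraries, and 99.5% to 100% of its 8121 bases were covered in each. In WT replicate 3 a second transcript, of 8 exons at 11.2 FPKM, stopped short. The level there was 41.7 FPKM over exons 1 to 8 and 30.5 over exons 9 and 10. With FPKM summed over transcripts WT replicate 3 was at 41.7 FPKM, and the log2 difference was 0.007. Over coding bases it was 0.045. The sign of the difference was negative in 3 of 20 settings.

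C1ql1 (ENSMUSG00000045532.5, chromosome 11, 102939264 to 102946688, minus strand), the secreted ligand, was at 37.1, 29.8 and 24.1 FPKM in KO and at 36.3, 34.9 and 26.2 FPKM in WT. The replicate 1 libraries were the highest of each genotype and the replicate 3 libraries the lowest. The means were 30.3 ± 6.51 and 32.5 ± 5.45 FPKM (SD, n = 3 each), with a log2 difference of -0.10 ± 0.20 (SE, limma unadjusted p = 0.630, adjusted p = 0.9999). Its single intron was assembled in all 6 libraries, and the assembled starts lay 62 to 85 bases upstream of the annotated one. Without KO replicate 3 the difference was 0.05.

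Matn4 (ENSMUSG00000016995.17, chromosome 2, 164389393 to 164405160, minus strand) had the largest spread between replicates of the 8 tested genes on the log2(FPKM + 1) scale. It was at 8.47, 3.33 and 14.9 FPKM in KO and at 19.3, 4.10 and 12.8 FPKM in WT. The replicate 2 library was the lowest in both genotypes, and the highest library was 5.80 times the lowest. The means were 8.88 ± 5.77 and 12.1 ± 7.63 FPKM (SD, n = 3 each), with a log2 difference of -0.38 ± 0.66 (SE, limma unadjusted p = 0.585, adjusted p = 0.9999). By number the differences were -1.10, -0.24 and 0.20. Without both replicate 1 libraries the difference was -0.02. Matn4 was assembled over 83.6% to 92.5% of its bases, so extent varied far less than level. In both replicate 2 libraries 2 transcripts with different first exons were assembled, at 1.14 and 2.17 FPKM in KO and at 2.18 and 2.44 FPKM in WT. The other libraries had 1 full-length form or, in WT replicate 1, 2 pieces.

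Rlbp1 (ENSMUSG00000039194.16, chromosome 7, 79374870 to 79387048, minus strand) was at 6.08, 7.93 and 9.43 FPKM in KO and at 6.46, 10.8 and 10.9 FPKM in WT. The replicate 1 library was the lowest in both genotypes, and KO was the lower library for each number. The means were 7.82 ± 1.68 and 9.40 ± 2.55 FPKM (SD, n = 3 each), with a log2 difference of -0.22 ± 0.24 (SE, limma unadjusted p = 0.388, adjusted p = 0.9999). Its difference was negative under all 20 settings, between -0.45 without WT replicate 1 and -0.08 without KO replicate 1.

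Susd5 (ENSMUSG00000086596.2, chromosome 9, 114057140 to 114098728, plus strand) was not tested, with a mean of 0.963 FPKM. It was at 0.603, 1.77 and 0.901 FPKM in KO and at 0.114, 1.15 and 1.24 FPKM in WT. Both replicate 1 libraries were the lowest of their genotype on this value and were in pieces, with 60.5% of the bases assembled in KO replicate 1 and 9.77% in WT replicate 1. The other 4 libraries held the full chain of 5 exons. With pieces under 300 nt counted, WT replicate 1 was at 3.03 FPKM, the highest of the 6, and the others did not move. With no filter on low values the log2 difference was 0.22 ± 0.34 (SE, limma adjusted p = 0.9998).

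In the fit without pairing, the spread between replicates set how small a difference could be seen. The within-genotype SD of log2(FPKM + 1) was smallest for Neu4 (0.115), Lhfpl3 (0.143) and Cspg4 (0.171), below the median of 0.225 over tested genes. It was 0.249 for Gpr17, 0.276 for C1ql1 and 0.338 for Rlbp1. Cacng4 (0.783) and Matn4 (0.987) were more variable than 93.3% and 95.7% of tested genes. For Neu4, at a mean of 2.05 FPKM, the pseudocount of 1 shrinks spread and difference alike. The SE of its log2 difference was 0.15 with this pseudocount and 0.22 with 0.1. With libraries paired by number, the SE of the log2 difference was smaller for every tested marker but Gpr17. It was 0.080 against 0.20 unpaired for C1ql1 and 0.29 against 0.66 for Matn4. For Gpr17 it was 0.21 against 0.19.

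The identifier number was examined as the other label that separates libraries, with genotype kept in the model. Number 3 holds 1 same-numbered pair of libraries and number 4 holds 2, and the fit treats all 6 libraries as independent, so its p-values may be too small. None of the 8 genes passed a limma adjusted p under 0.05 between number 3 and number 4, where 2.07% of tested genes did (249 genes). Unadjusted p was under 0.05 for 1 of the 8, Rlbp1, against 24.2% of tested genes. In sign, 7 were higher with number 3, and the median log2 difference was 0.17, against 0.01 for all tested genes. Both number 3 libraries lay above the other 4 for Cspg4 and C1ql1, against 18.7% of tested genes, and below them for Rlbp1, against 21.3%. Rlbp1 differed by -0.56 ± 0.11 (SE, limma unadjusted p = 0.00434, adjusted p = 0.0766), with 6.27 FPKM on average in the number 3 libraries and 9.78 in the number 4 libraries. C1ql1 differed by 0.35 (adjusted p = 0.261) and Cspg4 by 0.21 (adjusted p = 0.334). Astrocyte genes moved with the same number, from 244 and 314 FPKM in sum in the number 3 libraries to between 533 and 819 in the number 4 libraries, and their part in the Rlbp1 difference was not tested. None of the 12 astrocyte genes listed was at 0 in all 6 libraries. Gaps between KO and WT libraries were also taken after the mean of each genotype was subtracted. For 7 of the 8 genes, all but Gpr17, these gaps were smaller on average for the same number than for different numbers. The same held for 74.3% of tested genes.

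Most of these genes belong to families, and the libraries held a few members of each. Among the transmembrane AMPA receptor regulators, Cacng4 was the highest, followed by Cacng7 at 67.2, 69.7 and 18.003 FPKM in KO and 63.9, 80.5 and 38.5 FPKM in WT. The gene values of the replicate 3 libraries were low for Cacng7 as they were for Cacng4, and the assembled extent of Cacng7 was not examined. Cacng8 was at 7.10 to 9.46 FPKM and Cacng5 at 1.96 to 5.43, and the other 4 genes averaged under 1 FPKM. All 4 AMPA receptor subunits were above 1 FPKM, led by Gria3 at 9.38 to 14.8 FPKM and Gria4 at 8.19 to 11.01, with Gria2 at 4.72 to 11.3 and Gria1 at 2.03 to 2.72.

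C1ql1 was the highest of the C1q-like ligands, above C1ql3 at 5.43 to 10.2 FPKM and C1ql2 at 4.40 to 10.4, while C1ql4 was listed at 0 in all 6 libraries. The adhesion receptors of the family were present, with Adgrb2 at 37.6 to 49.9 FPKM, Adgrb1 at 18.7 to 24.4 and Adgrb3, the receptor best known for C1ql1, at 8.14 to 12.8. Matn2 was the only other matrilin above 1 FPKM, at 2.09 to 3.61, and Matn1 and Matn3 were listed at 0 in all 6. Lhfpl3 exceeded Lhfp (24.7 to 31.3 FPKM), Lhfpl4 (15.5 to 21.3) and Lhfpl2 (3.00 to 13.1) in every library, and the other 2 genes averaged under 1 FPKM. Neu4 was not the main sialidase transcript: Neu1, the lysosomal sialidase, was at 11.5 to 15.4 FPKM in the same libraries, and Neu2 and Neu3 averaged under 1 FPKM.

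Among receptors related to GPR17, P2ry6, P2ry1 and P2ry2 averaged between 1 and 2 FPKM and the other 6 averaged under 1, so Gpr17 stood far above its relatives. Of the proteoglycans, the secreted lecticans Ncan (90.6 to 122.9 FPKM) and Bcan (58.0 to 91.7) exceeded Cspg4 in every library. Cspg5, at 20.4 to 28.4 FPKM, Vcan, at 15.6 to 30.9, and Acan, at 1.14 to 1.80, were below it in every library. Of the sushi domain genes, Susd6 was at 17.1 to 21.2 FPKM and Susd4 at 9.78 to 15.5, above Susd5 in every library. Susd1 and Susd2 averaged above 1 FPKM, each with WT replicate 1 apart from the other libraries, at 0 and 5.16 FPKM. Of the genes for retinoid and tocopherol handling, Rdh11 (26.4 to 34.5 FPKM), Ttpal (8.58 to 11.2), Sec14l2 (4.64 to 7.13) and Rdh5 (0 to 11.4) averaged above 1 FPKM beside Rlbp1. None of these relatives passed the limma adjusted threshold between genotypes.

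**Figure D4:**
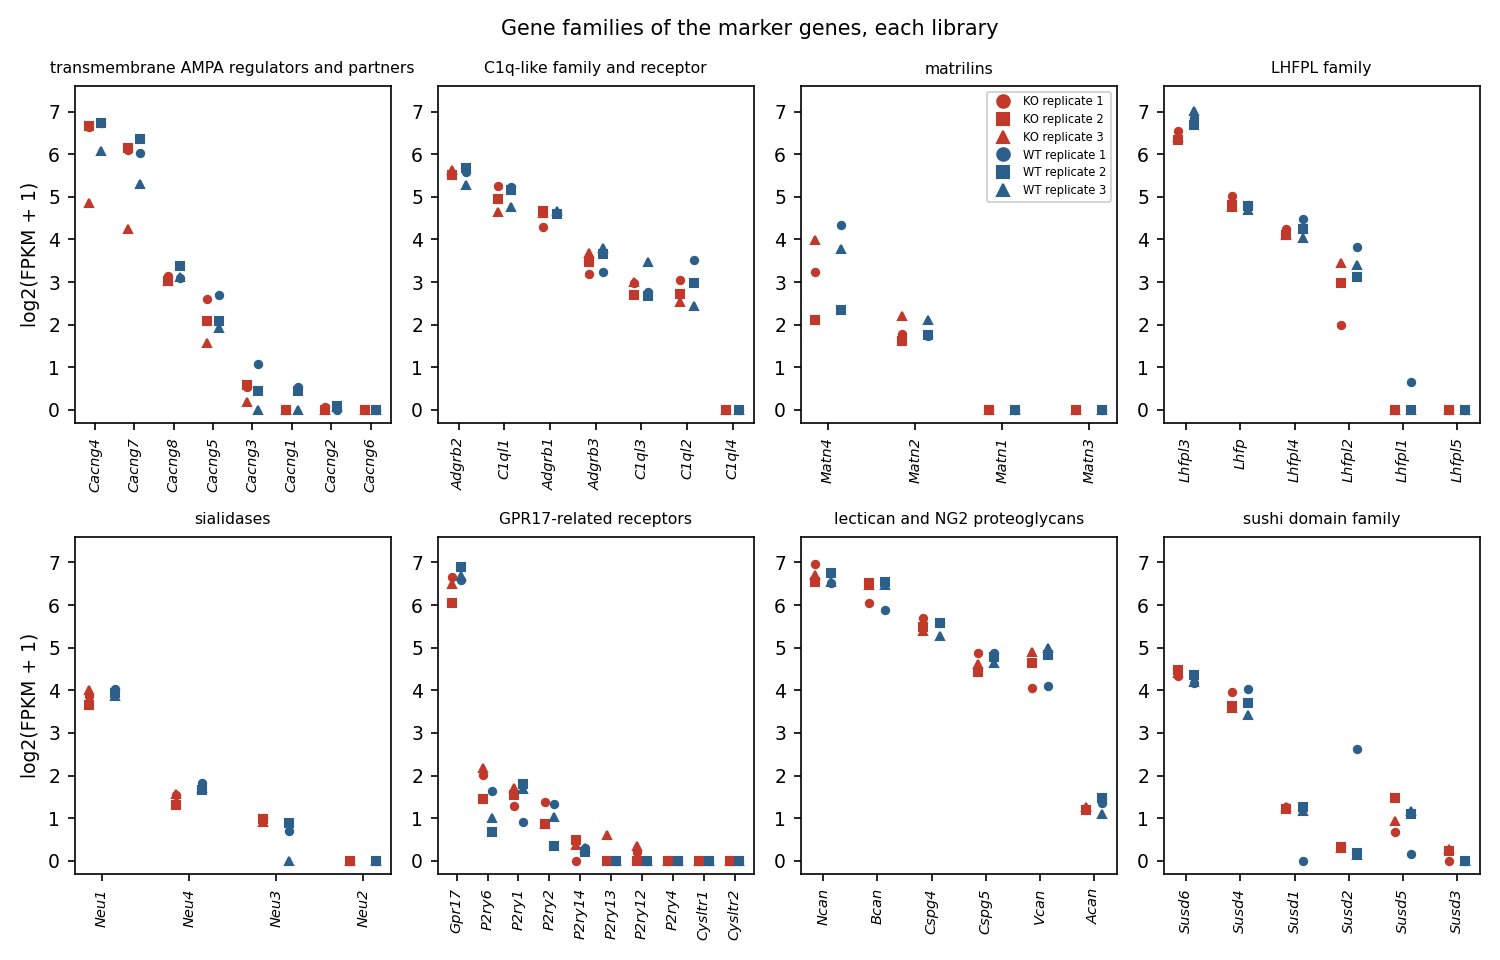
log2(FPKM + 1) of each library for the families of 8 of the marker genes, KO in red and WT in blue, with marker shapes for replicates 1 to 3 and genes ordered by mean within a panel. Cacng4, Lhfpl3, Gpr17 and Matn4 head their panels, while Neu1 lies above Neu4 and Ncan and Bcan lie above Cspg4.

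The remaining genes of the precursor programme were read from lists. A list of 30 other OPC genes held mostly, but not only, genes of surface and secreted proteins. Of these 30, 10 were higher and 20 lower in KO, none passed the limma adjusted threshold, and their median log2 difference was -0.10. Among them Serpine2, a secreted protease inhibitor, was at 221.5, 205.8 and 236.2 FPKM in KO and at 237.5, 214.2 and 232.6 in WT. Cntn1, an adhesion molecule, was at 155.8, 141.8 and 139.2 FPKM in KO and at 191.5, 146.8 and 161.0 in WT. Ptprz1, a receptor phosphatase, was at 131.4, 133.9 and 137.0 FPKM in KO and at 141.2, 145.8 and 145.5 in WT. All KO libraries lay below all WT libraries for 2 of the 30, against 3.03% of tested genes. Of 14 committed precursor genes, the stage that Gpr17 marks, 4 were higher and 10 lower, none passed, and the median was -0.09. Vcan is in both lists. The summed level of the 14 was 409 to 466 FPKM in KO and 498 to 545 in WT. Bcas1, the most abundant of them, was at 182.9, 182.3 and 190.1 FPKM in KO and at 215.4, 245.3 and 214.9 in WT (log2 difference -0.28, limma unadjusted p = 0.0594). Its KO libraries all lay below its WT libraries, which held for no other gene of the 14, against 3.03% of tested genes. Those of Fyn, a Src family kinase, overlapped, at 127.9, 76.3 and 104.5 FPKM in KO and 132.4, 130.0 and 122.6 in WT. Bcas1 and Fyn together made up most of the summed level in every library. Of 14 tested myelin genes 7 were higher and 7 lower in KO, none passed, and the median was -0.01. The most abundant were Cnp, at 97.7 to 172 FPKM, and Cldn11, at 61.3 to 81.5.

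For each tested marker, the genes with the most similar profile over the 6 libraries were found among 8510 genes at 5 FPKM or more, by the largest gap between profiles of log2(FPKM + 1) centred on their means. These are descriptions over 6 libraries. Cspg4 was matched most closely by Slc25a44, a mitochondrial carrier, with a largest gap of 0.03, and by St3gal3, a sialyltransferase (0.04). C1ql1 was matched by Wdr18 (0.06) and Capzb, an actin capping subunit (0.07), and Neu4 by Smndc1 (0.06) and Dnajc17 (0.07). Rlbp1 was matched by the histone variant gene H2afv (0.08) and Eri2 (0.09), and Lhfpl3 by Carnmt1 (0.10) and the kinase gene Pak3 (0.12). The nearest to Gpr17 were Zfp827 (0.14) and Casc4 (0.15). The profile of Cacng4 was nearest to Praf2 (0.21) and to Cacng7 of its own family (0.22), both low in the replicate 3 libraries. Cacng4 was assembled over 27.2% of its bases in KO replicate 3 and 88.6% in WT replicate 3. Its profile thus mixes level with assembled extent, and the extent of Praf2 and Cacng7 was not examined. Matn4 had no near match, with gaps of 0.55 to Rrp15 and 0.58 to Clec4n.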

How the data were processed

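RNA-seq of 3 KO and 3 WT samples was used, with genotype and replicate number taken from the titles. The submitters' processing notes name TopHat2 2.1.1, Cufflinks 2.2.1, Cuffdiff 2.2.1, FastQC and the mm10 build. Each deposited file is the transcript assembly of 1 library, in which the authors list the exons and FPKM of every transcript, without gene names. Strandedness and read totals are unknown here. Transcripts of 300 nt or more were matched by position to GENCODE M21 basic. FPKM was summed at each base that no other gene shares and averaged over these bases, for 31266 protein-coding and lncRNA genes with at least 200 such bases. Genes averaging at least 1 FPKM (12045) entered limma 3.58.1 (R 4.3.3) as log2(FPKM + 1), with a trended empirical Bayes fit, two-sided tests and Benjamini-Hochberg adjustment at 0.05. This scale understates changes of low genes. The code was tested on simulated data. Deviations from the group mean correlated between KO and WT libraries of 1 number (r = 0.369, 0.197 and 0.293 over genes, which are not independent). Other combinations gave -0.277 to 0.0234. Deviations sum to 0 within a genotype, so positive values for the same number push the others down. On this basis the numbers of the titles were read as pairs in an alternative fit, the replicate block. That reading rests on the same data as the fit. The main fit, with its SE and p, was unpaired. Named genes are the 9 markers, relatives at 1 FPKM or more, the most abundant genes of each list and the 2 nearest profiles, apart from 1 gene not reported here. The members and lists were chosen with earlier results of these data known. Alternatives covered pseudocounts, filters, scaling, the block, weights, gene values and left-out libraries, and that over coding bases was added after seeing the data. Promoter sequences are from RefSeq (GRCm38.p6).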

Additional observations from a re-analysis of the deposited data

How the results depend on the processing

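None of the 8 tested markers passed the limma adjusted threshold under any of the 20 settings for genotype (adjusted p 0.809 to 1) or the 13 for the identifier number (0.0727 to 1). With the replicate block, which pairs libraries by number, the adjusted p was 0.809 for 7 markers and 0.873 for Cspg4, and no call changed. The unadjusted limma p of that fit was 0.0143 for Lhfpl3, 0.0858 for Neu4 and 0.0861 for Rlbp1. For the other markers it lay between 0.197 (Cacng4) and 0.540 (Cspg4). The sign turned for Cspg4 with array weights (-0.014), for Cacng4 over assembled bases only (0.11) and for Matn4 with array weights (0.18). Leaving out single libraries gave ranges of -0.051 to 0.12 for Cspg4, -0.76 to 0.15 for Cacng4, -0.95 to 0.12 for Matn4, -0.25 to 0.047 for C1ql1 and, for the identifier number, -0.18 to 0.40 for Gpr17. The other single-gene values kept their sign, 142 for genotype and 94 for the number. Filters and the block leave the genotype estimate of a gene unchanged, so they could not turn it. Cacng4 apart, where unassembled bases count as 0, the cause of the turned signs was not tested. Over all genes, genotype calls numbered 1. They numbered 0 with pseudocounts of 0.1 and 5, with FPKM summed over transcripts, at a mean of 5 FPKM or more and with the replicate block, 29 without both replicate 1 libraries (18 higher, 11 lower), and 1 to 17 with single libraries left out. Identifier calls numbered 249, and 64 over assembled bases only, 0 with summed FPKM, 152 over coding bases, 9 with no minimum on transcript length and 6 to 48 with single libraries left out. Summing FPKM moved the median of all genes to -0.10. Depth is known only relatively, and Susd5, near 1 FPKM, was in pieces in both replicate 1 libraries.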
